A study of Mus musculus with 2 samples.

Results

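The 6 genes described here encode transcription regulators that direct cells to an adrenal cortical fate, with steroidogenic factor 1 (SF-1, the product of Nr5a1) at the centre: Nr5a1, Nr0b1, Gata4, Gata6, Wt1 and Cited2. They were chosen by name, as 6 of 21802 protein-coding genes, and their open chromatin was read from the gene body and 100 kb on each side. The data were DNase-seq libraries of whole adrenal gland, in which the enzyme DNase I cuts accessible DNA. The single group was male adult mice of the F1 hybrid strain B6CASTF1/J, aged 18 to 20 months. The labels name no treatment and no engineered allele. Its 2 libraries are biological replicates 1 and 2. The labels give them separate tissue samples and 1 donor entry, so the spread between them may be technical. The design holds no second condition, and the comparisons are between the replicates and between these genes and all others.

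SF-1 is a nuclear receptor that binds DNA as a monomer and switches on the genes of steroid synthesis. Without it, mice form neither adrenal glands nor gonads. In the mouse embryo WT1, a zinc finger protein, and CITED2, a coactivator that binds it, raise the level of Nr5a1 in the adrenogonadal primordium. DAX-1, the product of the X-linked gene Nr0b1, is an orphan receptor that represses SF-1 activity, and its loss in humans causes adrenal hypoplasia. GATA6 is the GATA factor of the postnatal mouse cortex, while GATA4 is best known in the gonads and the fetal adrenal gland.

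Open chromatin was found at the promoters of 5 of the 6 genes in both libraries. The exception was Nr0b1. A promoter was called open where a region with a peak in each library lay within 1 kb of a protein-coding transcript start, and 64.5% of all 21802 genes met this rule. Heights are the authors' depth-normalised signal at the highest peak. In bulk tissue a lower peak in more cells and a higher peak in fewer cells cannot be told apart.

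Cited2 had by far the tallest promoter of the 6. Its peak stood at 11.3 in replicate 1 and 9.22 in replicate 2, a mean of 10.3 ± 1.48 (SD, n = 2), and it ranked 206 among open promoters. Gata6 stood at 2.68 in replicate 1 and 2.10 in replicate 2, or 2.39 ± 0.411 (SD, n = 2). Nr5a1 had 2.12 in replicate 1 and 1.84 in replicate 2, or 1.98 ± 0.197 (SD, n = 2). The values of Gata6 and Nr5a1 lay close together: the lower Gata6 value was below the higher Nr5a1 value, so their order is not resolved. Gata4 had 1.21 in replicate 1 and 1.22 in replicate 2, or 1.21 ± 0.0122 (SD, n = 2). Wt1 had 0.563 in replicate 1 and 0.675 in replicate 2, or 0.619 ± 0.0793 (SD, n = 2). Apart from Gata6 and Nr5a1, no neighbours in this order overlapped between libraries.

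Against all open promoters, whose median mean height was 3.91 with a 10th percentile of 0.875 and a 90th of 7.60, only Cited2 was in the upper part. Its percentile was 98.5. The percentile was 30.3 for Gata6, 25.4 for Nr5a1, 15.3 for Gata4 and 5.07 for Wt1. SF-1, the regulator that defines the cortex, therefore had a promoter peak lower than that of most open genes in the whole organ. The genes with the most similar pair of heights were Pik3ap1 and Rnf213 for Nr5a1, Htatsf1 and Cxcl12 for Gata6, and Cadps2 and Rab42 for Gata4. They were Hspb3 and Pbld1 for Wt1, and Zbtb7a and Snrnp70 for Cited2, by distance on the log2 scale over the 2 libraries.

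**Figure D1:**
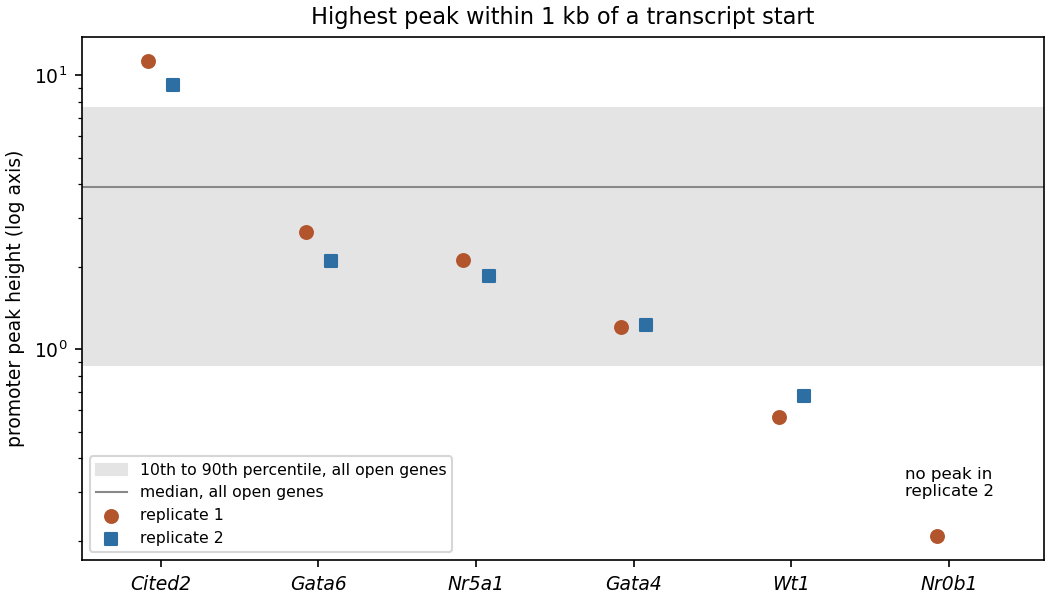
Promoter peak height (log axis, depth-normalised signal) of each of the 6 genes, with a circle for replicate 1 and a square for replicate 2. The line and band give the median and the 10th to 90th percentile of all open promoters, and Cited2 lies above the band, Wt1 below it, and Nr0b1 has a peak in replicate 1 only.

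Nr0b1 (chrX:86191764-86195947, plus strand, mm10) was the least accessible. Its promoter peak reached 0.207 in replicate 1 and was not listed in replicate 2, where the nearest peak lay 10377 bp from the start. Its window held 7 regions, 3 in replicate 1 only and 4 in replicate 2 only, and none in both. No shared region in the window was found for 8.84% of all genes and for 22.2% of the 948 genes on the X chromosome, which males carry as a single copy. On the X, 46.8% of genes had a promoter open in both libraries. The 3 regions of replicate 1 lay together over the coding exons, at heights of 0.207, 0.175 and 0.191. The 4 regions of replicate 2 lay downstream, between 10433 and 84279 bp from the start, at heights of 0.202 to 0.375. The Nr0b1 promoter sequence (RefSeq, GRCm38.p6, chrX:86191525-86191824) is shown because SF-1 is known to act on this gene in mice. The capitals mark AGGTCA, the core letters bound by many nuclear receptors, looked for on both strands after the sequence had been read.
Nr0b1 promoter: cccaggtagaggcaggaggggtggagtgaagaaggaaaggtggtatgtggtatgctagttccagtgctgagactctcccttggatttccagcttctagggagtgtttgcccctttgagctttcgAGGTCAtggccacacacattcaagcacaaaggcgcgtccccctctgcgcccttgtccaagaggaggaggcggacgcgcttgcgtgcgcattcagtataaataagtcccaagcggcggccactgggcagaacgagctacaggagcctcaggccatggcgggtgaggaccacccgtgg
The promoter held AGGTCA once, with its first base 126 bases before the RefSeq start, and 16.3% of the 32851 RefSeq promoters of this length held it. No base of the Nr0b1 promoter lay under footprints of both libraries. Footprints of a single library were looked for only in its part inside a replicate 1 region, which held none. A footprint is a short stretch, protected from cutting within an open region, where a protein may sit.

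Nr5a1 (chr2:38692656-38714542, minus strand) had a compact promoter region at chr2:38714401-38714600 that covered the start of transcript Nr5a1-201 and held 5 footprints in replicate 1 and 2 in replicate 2. Both footprints of replicate 2 overlapped footprints of replicate 1. The upstream one overlapped a WT1-type sequence, GNGTGGGNG on either strand, at chr2:38714545-38714553. Its distance from the start was -7 bp, and it was partly under a footprint in both libraries. WT1 is known to activate this promoter in the mouse gonad. Letters of this kind were present in the promoter regions of 30.1% of all open genes, so the match describes the sequence and names no protein. The second annotated start, of Nr5a1-202 inside the gene, had a peak of 1.04 in replicate 1 and none in replicate 2.

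Shared elements inside the gene and just upstream of it are shown with their sequence. The region in intron 4 (chr2:38706721-38706980, 7692 bp from the 5′ end) was the only distal region inside the gene that both libraries shared, at 0.940 in replicate 1 and 1.01 in replicate 2. Intron 4 is known to carry an enhancer for the fetal adrenal gland in mice, and whether this region belongs to it was not examined. The region upstream (chr2:38718749-38718885, at -4275 bp) had 0.536 in replicate 1 and 0.742 in replicate 2. It held the SF-1 consensus, CAAGGNCN with T or C at the first N and A or G at the last. Capitals mark a WT1-type sequence in the first and the SF-1 consensus in the second.
Nr5a1 intron 4 region: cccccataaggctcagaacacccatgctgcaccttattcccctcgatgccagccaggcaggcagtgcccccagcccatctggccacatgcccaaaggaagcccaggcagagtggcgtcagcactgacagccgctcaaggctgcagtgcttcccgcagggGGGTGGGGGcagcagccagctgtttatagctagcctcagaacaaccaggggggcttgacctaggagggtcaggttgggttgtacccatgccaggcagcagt
Nr5a1 upstream region: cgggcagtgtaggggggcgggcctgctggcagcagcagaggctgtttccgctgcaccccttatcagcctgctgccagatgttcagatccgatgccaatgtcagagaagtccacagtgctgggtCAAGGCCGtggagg
The WT1-type letters of the intron region overlapped a footprint in replicate 1 and none in replicate 2. The SF-1 consensus of the upstream region overlapped no footprint in either library.

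The tallest region of the Nr5a1 window covered the start of the neighbouring proteasome gene Psmb7, at 3.18 in replicate 1 and 4.52 in replicate 2. The tallest distal regions also lay outside Nr5a1. At 55862 bp from the 5′ end, beyond the 3′ end of the gene, the region chr2:38658601-38658760 had 3.66 in replicate 1 and 3.41 in replicate 2. Within introns of the neighbouring orphan receptor gene Nr6a1, the region at -82758 bp had 2.42 in replicate 1 and 3.44 in replicate 2. The one at -25108 bp had 2.08 in replicate 1 and 3.56 in replicate 2. Its log2 ratio of replicate 1 over replicate 2 was -0.78. That was the only shared region of the 49 outside the central 95% of ratios at regions of like height, although 9 of 49 were past 1.5-fold after centring on the genome median, against 18.4% of all shared regions. Of those 9, 8 were lower in replicate 1 after centring. How such regions split by direction over the whole genome was not counted, so no lean of these windows can be read from this.

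Both Nr6a1 regions held a consensus of CTCF, the protein that anchors chromatin loops, as did a region between Nr5a1 and Psmb7, one upstream of Gata4 and one downstream of Cited2. These 5 sites were each under a footprint in both libraries. The sequences are read along the strand of the match with 10 bases on each side, and capitals mark the CTCF consensus CCANNAGNNGGC, with C or G, C or T, A or G and G or T allowed at its N in that order.
Nr5a1 3′ side, chr2:38646104-38646135: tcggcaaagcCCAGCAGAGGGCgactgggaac
Nr6a1 intron, chr2:38739639-38739670: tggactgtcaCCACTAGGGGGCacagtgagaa
Nr6a1 intron, chr2:38797269-38797300: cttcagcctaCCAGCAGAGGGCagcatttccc
Gata4 upstream, chr14:63358165-63358196: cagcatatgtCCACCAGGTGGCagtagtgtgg
Cited2 downstream, chr10:17733231-17733262: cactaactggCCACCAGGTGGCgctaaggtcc
The 2 plus-strand sites that flank Nr5a1 had the same 12 letters, and the sites of Gata4 and Cited2 shared another 12. Over all distal shared regions, 95.6% of 5036 CTCF matches had a footprint in both libraries, so 5 of 5 is near the background. The consensus was in 5 of 32 distal regions of the 6 windows (15.6%, exact 95% interval 5.28 to 32.8) and in 11.6% of all distal shared regions. All 5 regions were lower in replicate 1, with a median log2 ratio of -0.45, against -0.17 over 5011 distal regions with the consensus, of which 68.1% were lower in replicate 1.

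Gata4 (chr14:63198922-63271692, minus strand) was open at 2 of its annotated starts, which lie inside the gene. The region chr14:63245181-63245520 covered the starts of Gata4-201 and Gata4-202. The start furthest inside, of Gata4-203, had no peak within 1 kb, the nearest in replicate 1 being at 17527 bp and the nearest in replicate 2 at 6207 bp. The outer starts, of Gata4-204, Gata4-205 and Gata4-206, had no peak within 1 kb in either library, and the nearest lay 14944 to 15512 bp away. Between the outer and the open starts both libraries shared a region at chr14:63256001-63256180, taller than the promoter itself, with 1.98 in replicate 1 and 1.74 in replicate 2. Further out, a region 17627 bp from the nearest Gata4 start (chr14:63195881-63196080, beyond the 3′ end of the gene) reached 4.15 in replicate 1 and 4.46 in replicate 2, the tallest distal region of all 6 windows. It held the E-box CACGTG under a footprint of both libraries. The next in height lay in introns of Fdft1, which encodes squalene synthase of cholesterol synthesis: chr14:63164621-63165100, with 1.88 in replicate 1 and 2.38 in replicate 2, and chr14:63150501-63150680, with 2.17 in replicate 1 and 1.78 in replicate 2. Fdft1's own promoter stood at 7.40 in replicate 1 and 7.95 in replicate 2 in the same window. The sequences below are the intronic region of Gata4, with bases under footprints of both libraries in capitals, and the central 150 bases of the first Fdft1 region (chr14:63164785-63164934), with the SF-1 consensus in capitals on the minus strand.
Gata4 intronic region: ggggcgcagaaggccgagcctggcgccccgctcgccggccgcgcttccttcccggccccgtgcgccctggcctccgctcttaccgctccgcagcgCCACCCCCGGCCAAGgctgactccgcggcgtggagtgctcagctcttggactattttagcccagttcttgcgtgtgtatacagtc
Fdft1 intron region: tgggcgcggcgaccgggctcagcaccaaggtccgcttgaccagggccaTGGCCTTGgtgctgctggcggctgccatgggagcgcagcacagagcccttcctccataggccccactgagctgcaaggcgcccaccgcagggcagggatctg
The footprint shared by both libraries in the Gata4 region spanned 15 bases. The SF-1 consensus in the Fdft1 intron lay under a footprint in replicate 2 and under none in replicate 1.

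Cited2 (chr10:17723218-17725674, plus strand) was ringed by open DNA. All 3 annotated starts lay in the region chr10:17723021-17723300. A second region at -768 bp had 5.77 in replicate 1 and 5.87 in replicate 2. Another, over the coding exon at 1012 bp, had 2.07 in replicate 1 and 1.95 in replicate 2 and, despite its height, no footprint in either library. The tallest distal region, 10032 bp downstream (chr10:17733161-17733340), had 2.44 in replicate 1 and 2.76 in replicate 2. It held the CTCF site shown above and, beside it, the GATA consensus TGATAG. In each library a single footprint spanned both, so it cannot be assigned to either. Lower regions at -1358 bp had 0.637 in replicate 1 and 0.967 in replicate 2, and at 4552 bp 0.488 in replicate 1 and 0.960 in replicate 2. The promoter sequence (RefSeq, GRCm38.p6, chr10:17722978-17723277) is shown as the tallest element of the 6 genes, with bases under footprints of both libraries in capitals. The region with an SF-1 consensus 37721 bp downstream (chr10:17760877-17761001) is set beside it as a weak one, with that consensus in capitals.
Cited2 promoter: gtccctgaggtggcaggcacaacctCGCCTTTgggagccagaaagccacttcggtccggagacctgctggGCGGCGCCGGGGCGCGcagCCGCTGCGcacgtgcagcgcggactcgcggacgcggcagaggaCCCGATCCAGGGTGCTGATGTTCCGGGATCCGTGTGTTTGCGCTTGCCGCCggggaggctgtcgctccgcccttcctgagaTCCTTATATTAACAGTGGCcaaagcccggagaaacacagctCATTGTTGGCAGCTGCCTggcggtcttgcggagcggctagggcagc
Cited2 downstream region: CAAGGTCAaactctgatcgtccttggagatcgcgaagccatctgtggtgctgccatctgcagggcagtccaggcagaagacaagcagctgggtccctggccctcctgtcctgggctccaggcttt
Of the 300 promoter bases, 119 lay under footprints of both libraries. The downstream region had 0.356 in replicate 1 and 0.240 in replicate 2, and its SF-1 consensus lay under no footprint.

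Wt1 (chr2:105126529-105173616, plus strand) had the weakest open promoter. The region chr2:105126344-105126571 covered the outermost start, of Wt1-205, and 4 further starts lay within 1 kb of it. The start of Wt1-201 and Wt1-202 had no peak within 1 kb, and the distance to the nearest was 4022 bp in replicate 1 and 4343 bp in replicate 2. Taller than the promoter were 3 distal regions. In an intron of Them7, a thioesterase family gene, the region chr2:105230461-105230600 had 2.13 in replicate 1 and 2.56 in replicate 2. At -17509 bp the region chr2:105108901-105109140 had 1.04 in replicate 1 and 1.95 in replicate 2, past 1.5-fold. At -97519 bp a region had 1.11 in replicate 1 and 1.22 in replicate 2. The sequence at -17509 bp is shown as the tallest region on the upstream side of Wt1, with bases under footprints of both libraries in capitals.
Wt1 upstream region: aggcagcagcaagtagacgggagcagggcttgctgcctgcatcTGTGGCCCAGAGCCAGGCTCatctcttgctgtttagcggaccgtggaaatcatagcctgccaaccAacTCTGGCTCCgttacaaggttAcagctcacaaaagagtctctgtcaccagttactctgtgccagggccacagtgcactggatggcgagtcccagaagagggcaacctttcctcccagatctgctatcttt
It held 31 such bases and none of the motifs searched in its central 150 bases.

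Markers of other organs and layers bear on how to read Wt1 and Gata4 in whole glands. Of 7 markers of adrenal cortex, 5 promoters were open in both libraries, with Hsd3b1 and Mc2r not listed. None of 6 markers of mesothelium, a tissue that expresses Wt1, had a promoter peak. Of 5 markers of gonadal supporting cells 4 were open, with Gata1 not listed. Open promoters numbered 1 of 4 for cardiac muscle, which expresses Gata4 and Gata6, and 2 of 4 for endoderm. Against 64.5% of all genes, the cortex share was 71.4% (exact 95% interval 29.0 to 96.3). The gonadal share was 80.0% (exact 95% interval 28.4 to 99.5). Such intervals were 0.631 to 80.6 for the cardiac list, 6.76 to 93.2 for endoderm and 0 to 45.9 for mesothelium. All span the background except that of mesothelium, which lies below it. The lists were chosen with earlier results of these data known, so no interval measures an enrichment or a lack. The summed promoter height of the cortex markers was 18.8 in replicate 1 and 15.2 in replicate 2. Most of it came from Scarb1, with 7.13 and 5.20 in that order, and Fdx1, with 4.93 and 4.76. The lists differ in length, so the sums compare replicates within a list and not the lists with each other. The sum of the gonadal markers was 6.57 in replicate 1 and 6.37 in replicate 2. That of the cardiac markers was 0.696 in replicate 1 and 0.502 in replicate 2. That of the endoderm markers was 1.39 in replicate 1 and 1.12 in replicate 2. Their part in the results was not tested.

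The E-box CACGTG, which basic helix-loop-helix proteins such as USF1 bind, was the motif, of those searched, that the promoters of these genes most often shared. With whole promoter regions searched, a choice made after matches had been seen, it was present in the promoter regions of 4 of the 5 open genes, Nr5a1, Gata4, Wt1 and Cited2, and in those of 16.4% of all 14066 open genes. Its distance from the nearest start was -45 bp at Nr5a1, -56 bp at Gata4, -118 bp at Wt1 and -141 bp at Cited2, which had another at 655 bp. Sequence searched per gene was 200 bp for Nr5a1, 340 bp for Gata4, 228 bp for Wt1, 1280 bp for Cited2 and a median of 480 bp over all open genes. Gata6, with 1760 bp, had none. The E-box near the start was under a footprint in replicate 1 at Nr5a1, in replicate 2 at Wt1 and at Cited2, and in neither library at Gata4. At Nr5a1 and Wt1 the footprint covered it in part. No E-box in these promoters was under a footprint in both. The E-box of the Nr5a1 promoter is known to bind USF proteins and to be needed for its activity in cultured cells.

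Gata6 (chr18:11052064-11085635, plus strand) had the broadest promoter, with 4 regions shared by both libraries within 1 kb of its 3 starts. The tallest, chr18:11052201-11052760, gave the promoter height above. The next, chr18:11052801-11053420, had 2.13 in replicate 1 and 2.02 in replicate 2. A region upstream at -517 bp had 1.26 in replicate 1 and 1.21 in replicate 2. The last of them, chr18:11054001-11054134, had 0.754 in replicate 1 and 0.870 in replicate 2. It held the SF-1 consensus, in its longer form with a pyrimidine before it and A at the end, partly under a footprint in replicate 2 and under none in replicate 1. It was the only own promoter among the 6 with that consensus, with the shorter form in 10.3% and the longer in 4.23% of all open genes. Its promoter regions also held the GATA consensus 9 times, 3 at the upstream region, 5 in the second tallest and 1 in the last, and 22.7% of all open genes had it. Of these 9 matches, 2 overlapped a footprint in replicate 2, both in part and 1 of them by 1 base only, and 0 did in replicate 1. The distal regions were low: 0.765 in replicate 1 and 1.10 in replicate 2 at -2637 bp, 0.818 in replicate 1 and 1.00 in replicate 2 at -1250 bp, and 0.637 in replicate 1 and 1.12 in replicate 2 at -35939 bp. The last held an E-box and an AP-1 consensus (TGANTCA, with C or G at N) that overlap, both under footprints of both libraries. The 5 distal regions shared by both libraries had mean heights of 0.389 to 0.934.

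**Figure D2:**
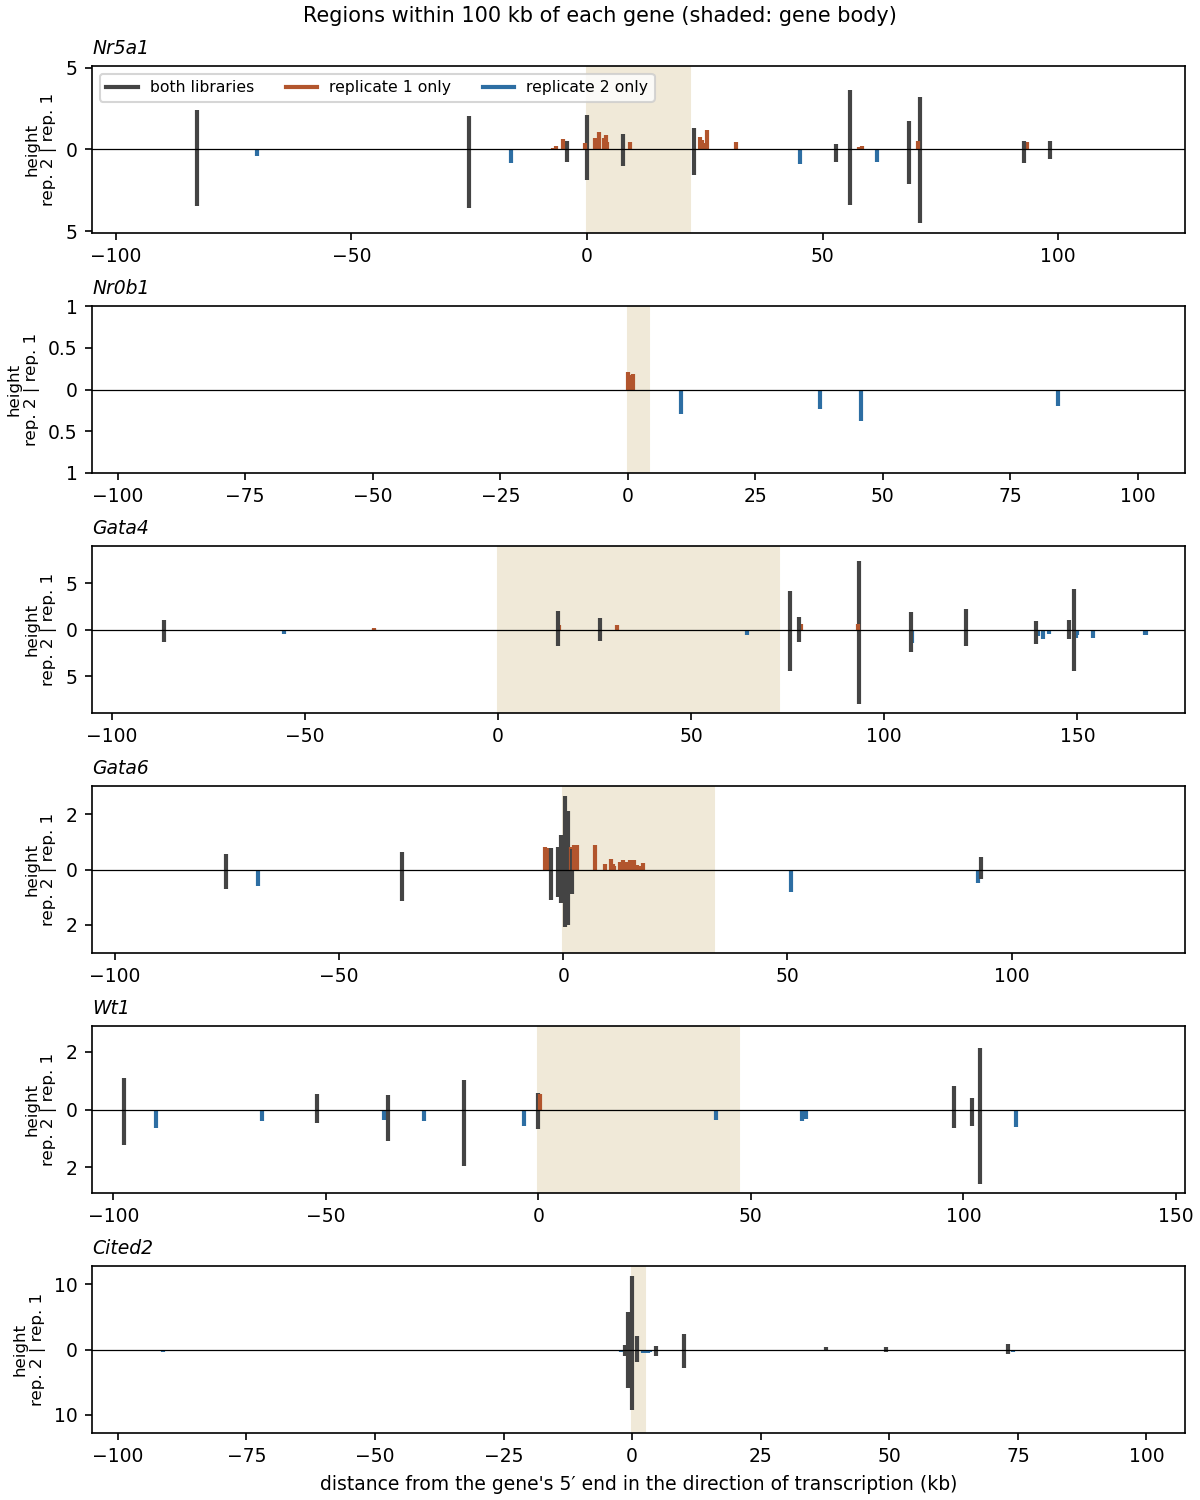
Regions within 100 kb of each gene, by distance from its 5′ end in kb in the direction of transcription; bars upward give the height in replicate 1 and bars downward that in replicate 2, and shading marks the gene body. Bars of 1 library only crowd the bodies of Nr5a1 and Gata6 on the replicate 1 side, and Nr0b1 has no region in both.

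Together the 6 windows held 138 merged regions, of which 49 were shared: 12 at Nr5a1, 11 at Gata4, 9 at Gata6, 9 at Cited2, 8 at Wt1 and none at Nr0b1. The shared share was 35.5% (exact 95% interval 27.6 to 44.1), against 45.7% of all 143793 regions. The median window over all genes held 11 shared regions, and the members' percentiles ran from 4.42 for Nr0b1 to 54.2 for Nr5a1. Among the 49, 10 were promoters of the 6 genes, 7 were promoters of neighbours and 32 were distal, 12 of them in introns and 20 between genes. In height the 17 promoter regions had a median of 1.98 and the 32 distal ones 0.975, beside 2.07 for 22681 promoter and 0.976 for 43097 distal regions of the genome.

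**Figure D3:**
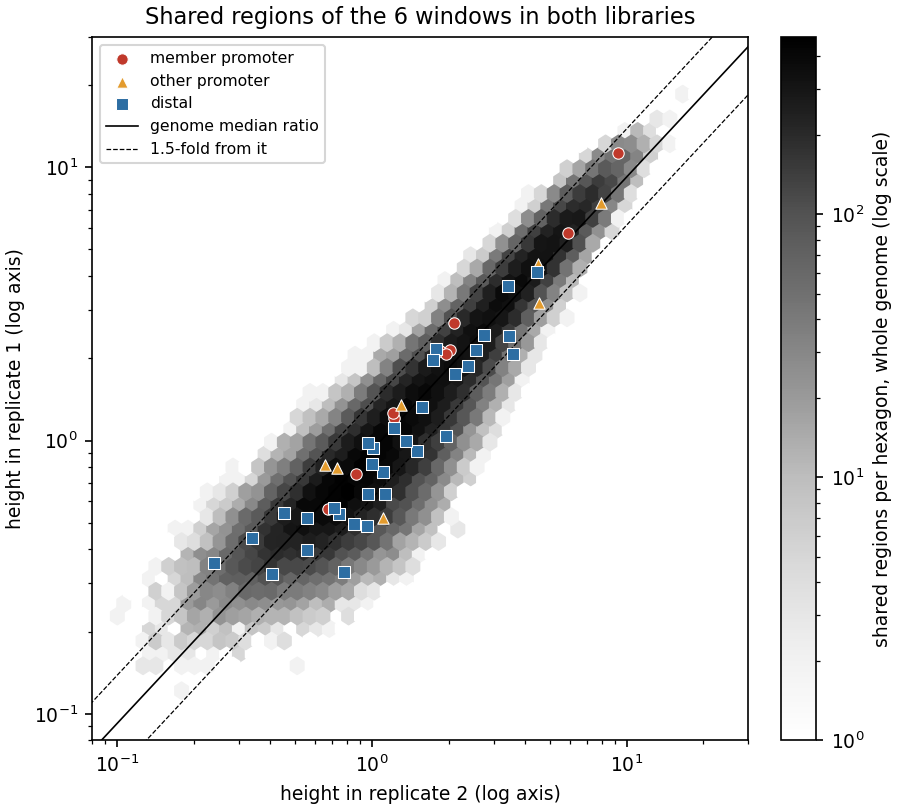
Height in replicate 1 against height in replicate 2 (log axes) of the 49 shared regions, over the density of all 65778 shared regions in grey. The solid line is the median ratio of the genome and the dashed lines lie 1.5-fold from it, and 9 of the 49 regions fall beyond them.

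SF-1 and GATA consensus letters were counted in the shared regions, and the intervals of the members' shares span the genome's share. In promoter regions the SF-1 consensus was in the central 150 bp of 1 of 17 (5.88%, exact 95% interval 0.149 to 28.7) and in 2.79% of all. The GATA consensus was in 3 of 17 (17.6%, exact 95% interval 3.80 to 43.4) and in 6.60% of all, each time at Gata6. The SF-1 consensus was in the central 150 bp of 3 of 32 distal regions (9.38%, exact 95% interval 1.98 to 25.0), at Nr5a1, Gata4 and Cited2, and in 5.54% of all distal shared regions. Of the 3 matches, 1 lay under a footprint, in replicate 2, and none was under footprints of both libraries, against 19.0% of 2516 such matches genome-wide. The GATA consensus, AGATAN or TGATAN with A or G at N, was in 6 of 32 distal regions (18.8%, exact 95% interval 7.21 to 36.4) and in 14.1% of all. Of its 6 matches 1, at Cited2, had footprints in both libraries, against 11.0% of 6714. That match lay in the footprint that also spanned the CTCF site. Of the footprints of replicate 1 in the 49 regions, 79 of 136 (58.1%, exact 95% interval 49.3 to 66.5) overlapped one of replicate 2, with 62.4% over the genome. Of those of replicate 2, 75 of 161 (46.6%, exact 95% interval 38.7 to 54.6) overlapped one of replicate 1, with 58.4% over the genome. This share was lower than the genome's, but footprints cluster within regions, which the interval does not account for.

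**Figure D4:**
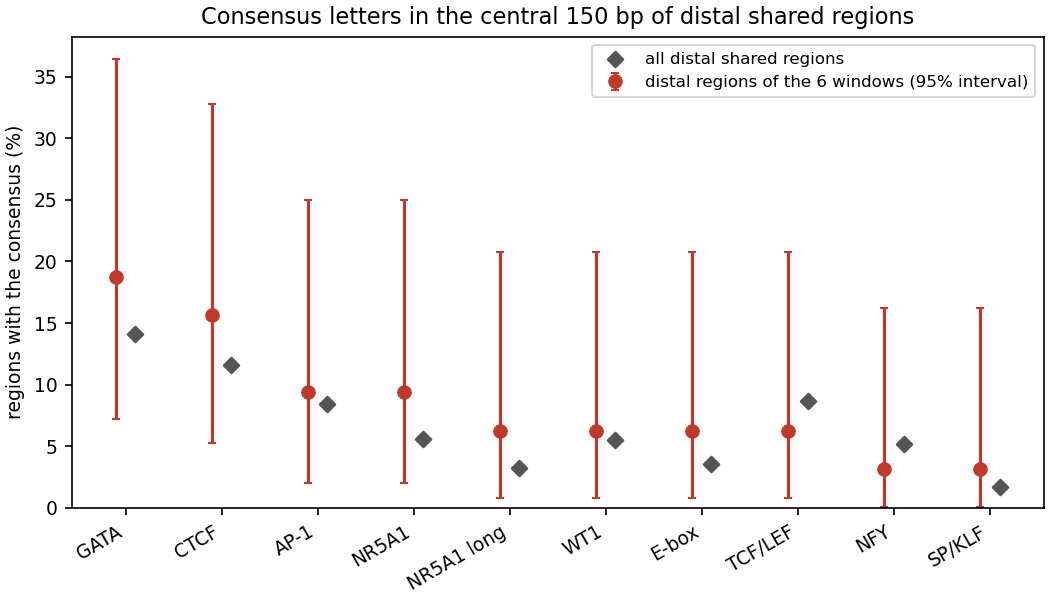
Percent of distal shared regions with each consensus in their central 150 bp, as circles with exact 95% intervals for the 32 regions of the 6 windows and as diamonds for all distal shared regions. The diamond lies within the interval for every motif shown.

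Inside the genes, regions listed in a single library were mostly those of replicate 1. The 6 windows held 50 regions in replicate 1 only and 39 in replicate 2 only, and of these the gene bodies held 31 of replicate 1 only and 3 of replicate 2 only. At each gene except Gata6, most such regions of the window lay outside the body. The body of Gata6 held 19 regions in replicate 1 only and 0 in replicate 2 only, and that of Nr5a1 held 6 in replicate 1 only and 0 in replicate 2 only. Nr0b1 had 3 in replicate 1 only and 0 in replicate 2 only. Counts were 2 and 1 in that order for Gata4, 1 and 1 for Wt1, and 0 and 1 for Cited2. Thus 4 of 6 gene bodies held more regions of replicate 1 only, as did 13.6% of all genes, and 1 of 6 held more of replicate 2 only, as did 35.8%. With the authors' shorter peak list, or with peaks above the median height alone, only Gata6 and Nr5a1 leaned to replicate 1. The genome as a whole leaned the other way, with 29054 regions in replicate 1 only and 48961 in replicate 2 only. This comparison was made after the regions had been seen.

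Peaks of replicate 1 covered 16.8% of the Gata6 body and those of replicate 2 covered 3.81%. At Nr5a1 they covered 13.8% in replicate 1 and 0.877% in replicate 2, and at Nr0b1 5.59% in replicate 1 and none in replicate 2. Over all genes, 120 bodies held at least as many regions of replicate 1 only as Gata6. Cited2, a gene of 2.46 kb, went the other way, with 25.4% covered in replicate 1 and 59.6% in replicate 2. At Gata4 the peaks covered 1.14% in replicate 1 and 1.10% in replicate 2, and at Wt1 0.418% in replicate 1 and 0.372% in replicate 2. Heights of the regions of replicate 1 only at Gata6 and Nr5a1 lay on both sides of that library's median of 0.717. At Gata6 these regions ran from intron 1 to intron 6, with heights of 0.117 to 0.897. The strongest by the authors' FDR, in intron 3, had a height of 0.366 and an FDR of 3.18e-14. At Nr5a1 the tallest, at the inner start, had 1.04 and an FDR of 6.02e-10. Of the 21 regions of replicate 1 only in the whole Gata6 window, 1 held any position listed under an FDR of 0.05 in replicate 2, and of the 19 in the Nr5a1 window likewise 1. With peaks above the median height of their library alone, Gata6 had 5 regions of replicate 1 only, Nr5a1 3, Nr0b1 0 and Gata4 0, each with 0 of replicate 2 only. With the shorter peak list, counts of replicate 1 only and replicate 2 only were 10 and 0 for Gata6 and 6 and 0 for Nr5a1. They were 0 and 0 for Nr0b1 and 0 and 1 for Gata4.

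In the bodies of 14 genes that SF-1 is known to activate, 41 regions were in replicate 1 only and 8 in replicate 2 only. More of replicate 1 only was held by 6 of these genes, more of replicate 2 only by 1, and equal counts by 7. Most of the 41 came from Cyp11b2 with 11, Scarb1 with 11, Cyp11b1 with 8 and Star with 7, and Scarb1 also held 6 of replicate 2 only. The 20 partners and regulators of the adrenogonadal primordium held 44 in replicate 1 only and 52 in replicate 2 only, with 8 genes leaning to replicate 1 and 7 to replicate 2. The 8 paralogs of the members held 26 in replicate 1 only and 5 in replicate 2 only. Of these genes 3 leaned to replicate 1, 1 to replicate 2 and 4 had equal counts. Peaks covered 24.1% of Star, which carries cholesterol into mitochondria, in replicate 1 and 5.37% in replicate 2. Coverage was 35.5% in replicate 1 and 0% in replicate 2 at Cyp11b1, the enzyme of corticosterone synthesis. At Cyp11b2, aldosterone synthase, it was 46.5% in replicate 1 and 0% in replicate 2. These shares are of the gene bodies alone, and both promoters were open in both libraries. Their heights were 1.55 in replicate 1 and 1.19 in replicate 2 at Cyp11b1. At Cyp11b2 they were 0.350 in replicate 1 and 0.180 in replicate 2. These last genes are close copies of each other, so how reads were shared between them is uncertain. Other markers were mixed: 7 chromaffin genes held 3 regions of replicate 1 only and 7 of replicate 2 only, 6 capsule and stroma genes held 5 and 9 in that order, and 5 endothelial genes 18 and 6. Summed promoter heights of the chromaffin markers were 18.7 in replicate 1 and 15.0 in replicate 2, with Th and Pnmt not listed, and those of the endothelial markers were 6.96 in replicate 1 and 4.60 in replicate 2. The part of cell makeup, depth and peak calling in these differences was not tested.

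**Figure D5:**
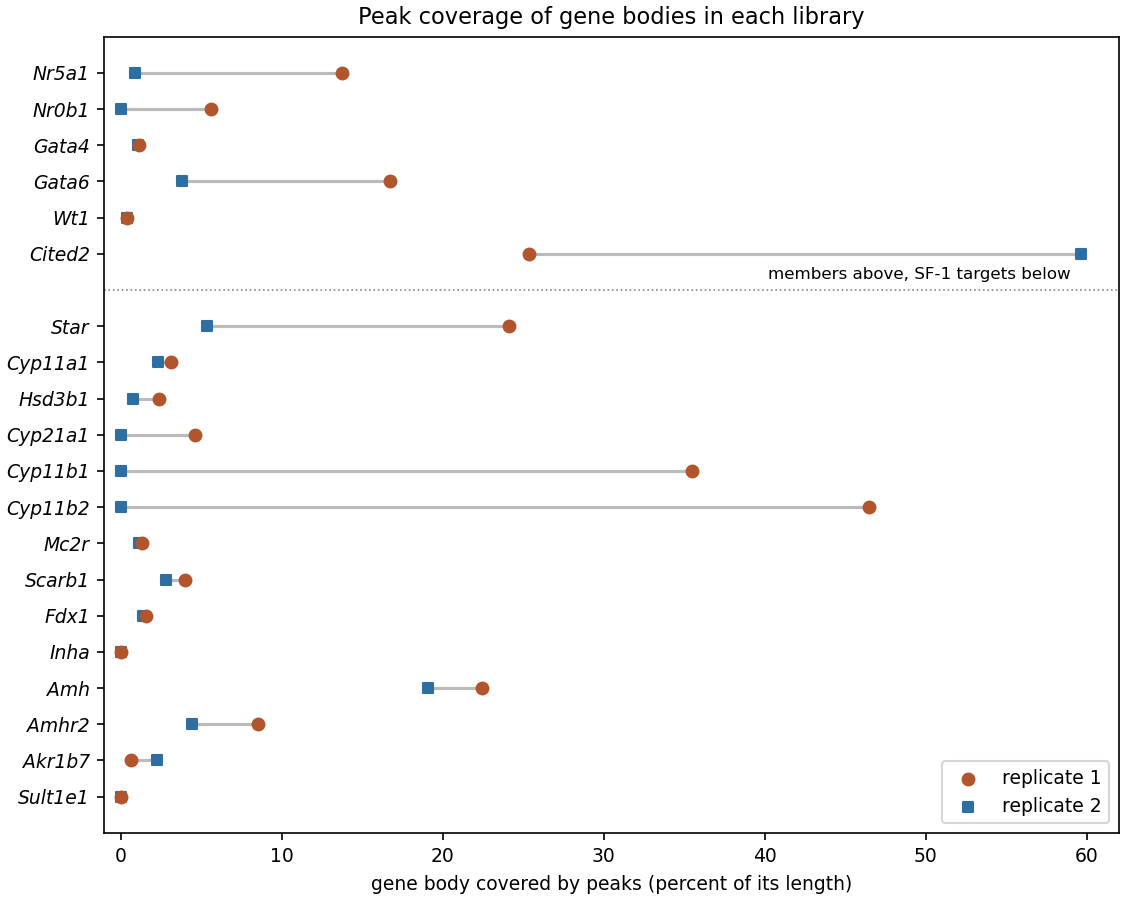
Percent of each gene body covered by peaks in replicate 1 (circles) and replicate 2 (squares), for the 6 genes above the dotted line and 14 SF-1 target genes below it. Gata6, Nr5a1, Star, Cyp11b1 and Cyp11b2 lie far to the right in replicate 1, and Cited2 in replicate 2.

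Most promoters of the wider pathway were open, but only for the partners did the interval of the open share lie above the share of all genes. The lists were chosen with earlier results of these data known, so this interval does not measure an enrichment. All 20 partners and regulators of the adrenogonadal primordium were open in both libraries (exact interval 83.2 to 100), against 64.5% of all genes. The tallest were Zfpm1, a GATA cofactor, at 11.0 ± 0.476, Ctnnb1, the beta-catenin of Wnt signalling, at 7.80 ± 2.56, and the homeobox gene Pknox1 at 5.79 ± 0.222 (SD, n = 2 each). Of 8 paralogs 7 were open and Gata1, the erythroid GATA factor, had no promoter peak. The open share of the paralogs was 87.5% (exact interval 47.3 to 99.7), and this interval spans the 64.5% of all genes. The tallest were Cited4 at 3.64 ± 0.754, Gata3 at 3.53 ± 0.260 and Gata2 at 3.47 ± 1.27 (SD, n = 2 each). Gata2 and Gata3 thus had mean promoter heights above those of Gata6 and Gata4, though Gata2 at its lower value, 2.57 in replicate 2, was below the higher value of Gata6. Nr5a2, the closest relative of Nr5a1, had 0.781 in replicate 1 and 0.862 in replicate 2. Of the 14 SF-1 targets 10 were open, led by Scarb1, the HDL receptor, at 6.16 ± 1.37, Fdx1, the electron donor of steroid enzymes, at 4.85 ± 0.120, and Amh at 2.65 ± 0.220 (SD, n = 2 each). The open share of the targets was 71.4% (exact interval 41.9 to 91.6), and this interval also spans the 64.5% of all genes. Hsd3b1, Cyp21a1, Mc2r and Sult1e1 had no promoter peak in either library. Cyp21a1 has a near-identical copy, which can leave reads unplaced, so its missing peak is uncertain.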

How the data were processed

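DNase-seq libraries of mouse adrenal gland were used, 1 for each of biological replicates 1 and 2. Per the file headers and index text, the authors made peaks, footprints and false discovery rates for each library from an alignment to mm10. Which aligner and callers, and which versions of them, is not given in the sources used here. Peak height is a depth-normalised signal deposited by the authors. It came in whole multiples of 1 step, 0.00531 in replicate 1 and 0.00750 in replicate 2, with 100% of heights within 0.05 of a whole number, and what 1 step counts is not stated. The FDR, a q-value, was deposited by the authors per position and lists only values under 0.05. The longer peak list of each library held 98630 peaks in replicate 1 and 118249 in replicate 2, with 228557 and 273271 footprints in that order.

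Peaks that overlapped by at least 1 bp were merged into regions, and a region with a peak of each library was shared. Genes came from GENCODE M21 on GRCm38, the assembly mm10 names, after 54 records with ambiguous symbols were left out. Motifs were searched on both strands in the central 150 bp of a region unless stated. A match was counted as under a footprint where they overlapped by at least 1 bp. Sequences are the reference's, and how the alleles of these mice differ from it was not examined. Of the 6 genes, 2 were in the RefSeq promoter table. With 1 group of 2 libraries no test between conditions was possible. Shares carry exact Clopper-Pearson 95% intervals that cover counting error only, and log2 ratios are replicate 1 over replicate 2 without a pseudocount. Every member, its promoter regions, its 3 tallest distal shared regions and regions with a footprint over the SF-1 consensus were named, and from each list of paralogs, partners and SF-1 targets the 3 tallest promoters and those with none. The members, lists and this rule were chosen with earlier results of these data known. The result of 1 marker list is not reported here. Functions were checked on simulated data. Tools were Python 3.11.15, NumPy 2.4.6, pandas 2.3.3, SciPy 1.17.1, pysam 0.24.0 and samtools 1.23.1.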

Additional observations from a re-analysis of the deposited data

How the results depend on the processing

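Of 53 alternative values over 10 results, 16 moved, a count by over 1.5 times, a share beyond its 95% interval or a median by over 1 SD of the ratios. Only the median log2 ratio could reverse, as counts and shares have no sign, and it kept its sign. Those bounds are wide for shares of few regions. The SF-1 consensus share, 8.16% of all 49 shared regions, was 3.57% with the shorter peak list, 4.55% to 4.90% with a single library and 14.3% with whole regions searched. The GATA share of 18.4% was 28.6% with whole regions searched. The median log2 ratio of -0.18 was -0.07 with the shorter peak list, -0.10 with an overlap of 50% and -0.11 with the taller peaks of each library alone. The number of open promoters stayed between 4 and 6. Wt1 was lost with the shorter peak list and with peaks above the median height alone, Gata4 was lost when the gene's 5′ end alone counted, and Nr0b1 was gained without replicate 2. With the shorter peak list, shared regions numbered 28, the share with a GATA consensus was 7.14%, 2 regions were past 1.5-fold, and the gene bodies held 16 regions of replicate 1 only and 1 of replicate 2 only. With peaks above the median height, shared regions numbered 32, the shared share was 54.2%, 3 regions were past 1.5-fold, and the gene bodies held 8 regions of replicate 1 only and 0 of replicate 2 only. With an overlap of 50% of both peaks, the shared share was 27.5% and 5 regions were past 1.5-fold. With a single library, regions numbered 88 to 102 and footprints 185 to 213, since no recurrence is then asked for. A single library gives no shared share and no ratio. The alternatives for the 1.5-fold count and the gene bodies were chosen after seeing the data. Reading 2 libraries limits every spread, and heights near the lowest listed values are the least certain to recur. No paired analysis was possible because there was 1 group.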
